A study of Mus musculus with 17 samples.

Results

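The Ikaros family comprises 5 genes, Ikzf1 (Ikaros), Ikzf2 (Helios), Ikzf3 (Aiolos), Ikzf4 (Eos) and Ikzf5 (Pegasus), and their transcripts were followed through 5 sorted progenitor fractions of mouse bone marrow. Members were taken as every probe set, the unit in which the array reports a transcript, that carries 1 of these gene symbols and no other. This gave 13 probe sets among the 45037 tested, for 5 of 18193 named genes, with 2 for Ikzf1, 3 each for Ikzf2, Ikzf3 and Ikzf4, and 2 for Ikzf5.

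RNA from bone marrow cells of adult mice aged 10 to 14 weeks was amplified and hybridised to 17 one-colour Affymetrix arrays. All fractions were lineage-negative (Lin-), no genotype, strain or treatment is given in the labels, and the short names below other than preMegE come from general knowledge of the scheme. CLP, common lymphoid progenitors, were Lin-Sca1lowKitlowIL7r+Flk2+ (3 arrays). The other 4 fractions were Sca1- and Kit+. MkP, megakaryocyte progenitors, were Itga2b+Slamf1+ (3 arrays). The remaining gates were Itga2b- and low for the Fc gamma receptors, namely 3 preCFUE arrays (Slamf1+Enghigh, early in the erythroid line), 5 preMegE arrays (Slamf1+Englow, upstream of both platelets and red cells) and 3 preGM arrays (Slamf1-Englow, on the granulocyte and monocyte side). Nothing in the labels tells whether replicate arrays stem from different animals or sorting days. The p-values therefore reflect array-to-array spread alone, and that spread could be technical. A gate is not a pure cell type, and in bulk RNA fewer cells that hold a transcript and less of it per cell cannot be told apart.

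Ikaros family proteins are zinc finger transcription factors. Fingers near the N terminus bind DNA at sites built around GGGAA, and a pair near the C terminus joins family members into homodimers and heterodimers. They act largely through chromatin complexes, above all NuRD, which joins the nucleosome remodeller Mi-2beta (encoded by Chd4) to histone deacetylases. Ikaros is required for lymphocyte development and is also present in stem and myeloid progenitor cells, Aiolos acts in B cell maturation, and Helios and Eos are best known from regulatory T cells. Pegasus binds a different DNA site from its relatives.

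Ikzf1 had the lowest F test p-value of the family, given below, so the sequence around its annotated starts is shown here. RefSeq (GRCm38.p6) lists 2 start windows for it, each of 250 bases before to 50 after the start on the plus strand. The windows lie at chr11:11685675-11685974 and chr11:11689927-11690226, and capitals mark GGGAA or its reverse complement TTCCC, the core that Ikaros family proteins recognise.
Ikzf1 window 1: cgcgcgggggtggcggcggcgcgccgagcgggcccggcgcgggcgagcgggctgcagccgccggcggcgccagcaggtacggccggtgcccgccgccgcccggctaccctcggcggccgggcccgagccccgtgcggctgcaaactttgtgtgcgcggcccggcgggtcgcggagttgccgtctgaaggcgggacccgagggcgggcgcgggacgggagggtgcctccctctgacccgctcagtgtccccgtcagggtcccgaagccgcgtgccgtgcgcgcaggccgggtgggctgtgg
Ikzf1 window 2: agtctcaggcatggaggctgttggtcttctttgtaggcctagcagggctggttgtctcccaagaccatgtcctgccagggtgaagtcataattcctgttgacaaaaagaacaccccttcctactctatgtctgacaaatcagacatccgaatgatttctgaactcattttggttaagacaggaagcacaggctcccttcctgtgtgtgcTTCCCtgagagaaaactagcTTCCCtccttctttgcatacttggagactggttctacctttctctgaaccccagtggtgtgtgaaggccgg
Window 1 is 81.3% G or C and holds no copy of the core, whereas window 2 is 49% G or C and holds 2 copies. The core was searched on both strands, overlaps with other motifs included, and 62.7% of the 32851 windows in the table hold at least 1. Neither Ikzf1 window holds GATAA, the core of GATA factor sites (25.4% of all windows), or CANNTG, the E-box (72.3%), on either strand. The single Ikzf5 window (chr7:131410429-131410728, minus strand) holds 1 GGGAA core and 1 E-box. Ikzf2, Ikzf3 and Ikzf4 have no window in the table. The arrays do not show which start was used, and a match to letters is a description and not a binding site.

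Of 7 measured genes of the gates, Il7r and Itga2b followed their gates and Eng did not, while the remaining genes are not given here. Il7r was 1752 ± 553 in CLP and 60.5 ± 39.2 in preGM, and Itga2b was 2058 ± 249 in MkP and 319 ± 64.2 in preMegE (mean RMA intensity ± SD, n = 5 arrays for preMegE and 3 for each other fraction, here and below). Eng did not follow its gate, at 237 ± 44.2 in preCFUE and 234 ± 16.2 in preMegE. In that pair 0 of the 7 genes were higher and 2 were lower in preCFUE (7.72% of all genes passed). Of the marker lists, the summed level of 5 megakaryocyte genes was 9585 to 10222 in MkP arrays and at most 344 in any other array. The summed level of 6 granulocyte and monocyte genes was 16673 to 17680 in preGM arrays and at most 1368 elsewhere. Other lists were less distinct. The sum of 6 neutrophil genes varied widely within fractions, at 222 to 1531 in preGM, 100 to 1541 in preMegE and 124 to 1396 in MkP. That of 4 erythroid genes was 5244 to 6101 in preCFUE and 3192 to 5115 in preMegE. It was 664 to 1394 in CLP, which overlapped MkP (961 to 1514), and 449 to 720 in preGM. Array medians ran from 15.9 to 19.1 and correlations within a fraction from 0.938 to 0.995. CLP replicate 2 correlated at a mean of 0.962 with preGM arrays and at 0.948 with the other CLP arrays. CLP replicate 3 correlated at 0.944 with the other CLP arrays and at 0.90 with preGM arrays. CLP replicates 1 and 3 had medians of 19.0 and 19.1 and 75th percentiles of 50.3 and 51.3. For CLP replicate 2 these were 17.5 and 60.5. Which CLP arrays depart from the gate was not tested. CLP replicate 2 stayed in the fits, and calls that changed without it are given for the F tests and for the 5 probe sets with a pairwise difference past the test.

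Across the family, 4 of 13 probe sets (30.8%) differed among the 5 fractions by limma's moderated F test with Benjamini-Hochberg adjustment, beside 23.7% of all probe sets, and without CLP replicate 2 the count was 7, beside 30.3% of all probe sets. The 4 belonged to Ikzf1 (1436312_at, adjusted p = 8.26e-07), Ikzf2 (1437542_at, adjusted p = 1.06e-06, and 1456956_at, adjusted p = 0.0135) and Ikzf5 (1429431_at, adjusted p = 0.0363). Ikzf3 had no probe set past this test and neither did Ikzf4, the lowest of their adjusted p-values being 0.0633 and 0.325. Of the 130 combinations of a probe set and a pair of fractions, 18 passed the test of the pair (13.8%, beside 9.81% over all probe sets), and 15 of these were of Ikzf1 or Ikzf2. The other 3 were 1 of Ikzf3 and 2 of Ikzf5. The share over the family is therefore near that of the array as a whole, and the account below is of single members.

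**Figure D1:**
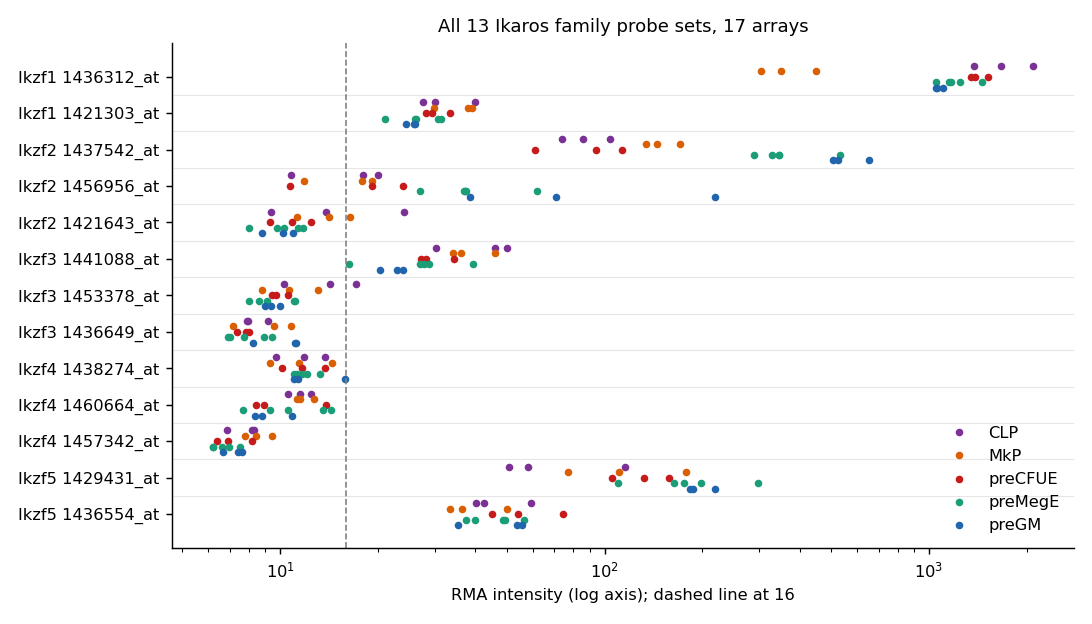
RMA intensity (log axis) of the 13 Ikaros family probe sets in each of the 17 arrays, 1 point per array, coloured by fraction, with a dashed line at 16, the constant added before taking logarithms. Ikzf1 1436312_at and Ikzf2 1437542_at show fractions that stand apart, while all 51 values of Ikzf4 lie under 16.

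Ikzf1 encodes Ikaros, the founding member of the family. Its main probe set (1436312_at) was strong in every fraction except MkP. The intensities were 1664, 2098 and 1379 in CLP, 448, 349.8 and 304 in MkP, and 1345, 1387 and 1517 in preCFUE. In preMegE they were 1248, 1053, 1452, 1165 and 1153, and in preGM 1102, 1059 and 1049. Every MkP array lay below every array of the other 4 fractions, while preMegE overlapped both CLP and preCFUE. By mean level the order was CLP (1713 ± 362), preCFUE (1416 ± 90.1), preMegE (1214 ± 149.6), preGM (1070.05 ± 28.2) and MkP (367 ± 73.3).

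Differences are given as log2(intensity + 16) of the first fraction minus the second, ± SE, and so understate the change of dim probe sets. Ikzf1 was lower in MkP than in preMegE by -1.69 ± 0.14, a 3.23-fold difference (limma adjusted p = 3.02e-06). It was lower in MkP than in preCFUE by -1.92 ± 0.15 (adjusted p = 1.67e-06), so the megakaryocyte and erythroid gates differed from each other as well as MkP from their shared precursor. Against preGM the MkP difference was -1.52 ± 0.15 (adjusted p = 1.94e-05), and CLP exceeded MkP by 2.17 ± 0.15, a 4.50-fold difference (adjusted p = 3.02e-07). These 4 differences passed under every alternative analysis that tested this probe set and with each array left out.

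On the erythroid side Ikzf1 showed no change past the test. The difference of preCFUE from preMegE was 0.23 ± 0.14 (adjusted p = 0.567), and that of preCFUE from preGM was 0.40 ± 0.15 (adjusted p = 0.161) although their arrays did not overlap. The difference from preGM passed with array weights (0.42, adjusted p = 0.00935), with the 75th percentile of each array as a covariate (0.48, 0.0288) and in a fit of only those 6 arrays (0.0196). preMegE and preGM, neighbours in the order of levels, differed by 0.17 ± 0.14 (adjusted p = 0.789).

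CLP stood at the top of the Ikzf1 order by a smaller margin. It was higher than preGM by 0.65 ± 0.15 (1.57-fold, adjusted p = 0.0179, arrays not overlapping) and higher than preMegE by 0.48 ± 0.14 (1.39-fold, adjusted p = 0.0287, arrays overlapping). The difference from preCFUE, its neighbour in the order, was 0.25 ± 0.15 (adjusted p = 0.286), and it passed under quantile normalization (0.70, adjusted p = 0.000388) and was 0.098 without CLP replicate 2 (0.687). The margin over preGM was 0.50 without CLP replicate 2 (adjusted p = 0.0298). It was lost with median centring of the arrays (0.48, adjusted p = 0.0951), without preGM replicate 1 (0.67, 0.053) or 2 (0.64, 0.0617), and in a fit of only those arrays (0.139). The margin over preMegE was lost with median centring (0.35, adjusted p = 0.164), without CLP replicate 1 (0.0728) or 2 (0.32, 0.102), without preMegE replicate 2 (0.0516), 4 (0.0571) or 5 (0.0559), and in a fit of only those arrays (0.0874). With the replicate number as a block both margins were lost (adjusted p = 0.0632 over preGM and 0.155 over preMegE). The other Ikzf1 probe set, 1421303_at, did not show the pattern of 1436312_at. It read 21.0 to 39.9 over the 17 arrays, with 29.8 to 39.1 in MkP and 21.0 to 31.2 in preMegE, and passed neither the F test (adjusted p = 0.144) nor any pair. The r of 1436312_at with the array median was -0.151 over 17 arrays and -0.586 after removing fraction means. With the array 75th percentile as a covariate its MkP differences were -1.27 from preGM, -1.51 from preMegE and -1.75 from preCFUE, and all 3 passed (adjusted p = 0.000324, 1.27e-05 and 3.62e-06).

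**Figure D2:**
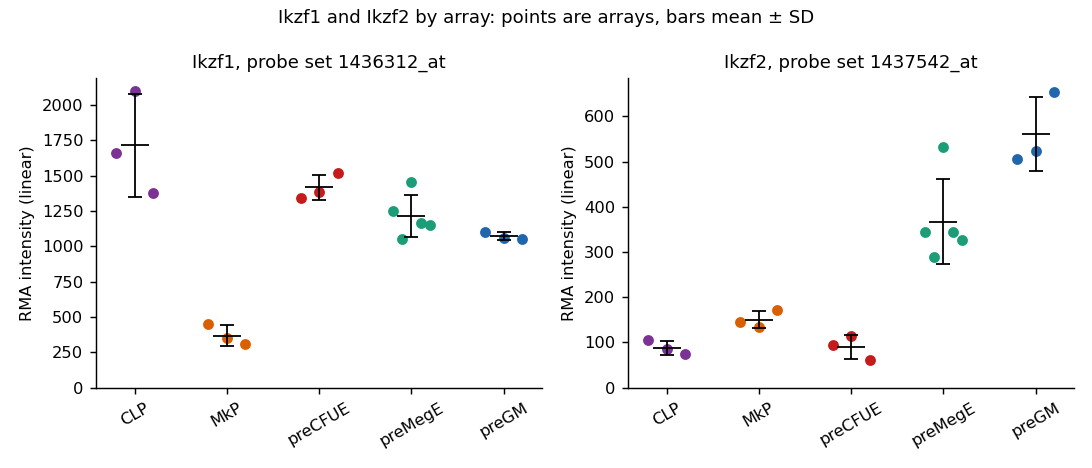
RMA intensity on a linear axis from 0, by fraction, for Ikzf1 (left) and Ikzf2 (right). Points are arrays and bars show the mean ± SD of 3 arrays (5 for preMegE); Ikzf1 is lowest in MkP (304 to 448), and Ikzf2 is highest in preGM (505 to 655) and preMegE (288 to 532).

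Ikzf2 encodes Helios. Its main probe set (1437542_at) separated the fractions along other lines than Ikzf1, being high in preGM and preMegE and low in the 3 other fractions. The intensities were 104, 85.6 and 73.8 in CLP, 145, 134 and 171 in MkP, and 93.8, 113 and 61.2 in preCFUE. In preMegE they were 345, 288, 532, 344 and 327, and in preGM 505, 524 and 655. All 8 preMegE and preGM arrays lay above all 9 arrays of the other fractions, and preMegE replicate 3 fell within the preGM range.

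Both steps out of preMegE came with lower Ikzf2. The MkP difference from preMegE was -1.18 ± 0.19 (2.27-fold lower, adjusted p = 0.00173) and the preCFUE difference was -1.86 ± 0.19 (3.64-fold lower, adjusted p = 4.77e-05). MkP and preCFUE differed from each other by 0.68 ± 0.21 with arrays that did not overlap, at an adjusted p of 0.0608. That difference passed in 8 of the alternative analyses, arrays left out included, among them quantile normalization (0.99, adjusted p = 0.0158), array weights (0.79, 0.0117) and a fit of 1 probe set per gene (0.0433).

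CLP shared the low end of the Ikzf2 order with preCFUE, at a difference of 0.00044 ± 0.21 (adjusted p = 0.999). It was lower than preGM by -2.48 ± 0.21 (5.56-fold, adjusted p = 6.21e-06) and lower than preMegE by -1.86 ± 0.19 (3.64-fold, adjusted p = 1.12e-05). Its difference from MkP was -0.68 ± 0.21 (adjusted p = 0.0699), which passed without preMegE replicate 3 (0.0258) and among probe sets with a mean of at least 16 (0.044). preGM was the top of the order. Against it, preCFUE differed by -2.48 ± 0.21 (adjusted p = 2.27e-06), MkP by -1.79 ± 0.21 (adjusted p = 9.84e-05) and preMegE, its neighbour, by -0.61 ± 0.19 (adjusted p = 0.101). The preMegE difference from preGM passed without preMegE replicate 3 (-0.75, adjusted p = 0.0137) and with array weights (-0.57, 0.015). The 6 differences of this probe set that passed did so under every alternative run and with each array left out.

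A second Ikzf2 probe set, 1456956_at, followed the first, with Pearson r = 0.797 and Spearman rho = 0.806 over the 17 arrays, which share their processing. It read 10.8, 18.1 and 20.1 in CLP, 17.8, 19.2 and 11.9 in MkP, and 10.7, 24.0 and 19.1 in preCFUE. In preMegE it read 36.8, 27.0, 62.1, 37.1 and 37.5, and in preGM 70.9, 38.5 and 219. The preGM arrays were the most scattered, with replicate 3 far above the others. CLP (-1.69 ± 0.39, adjusted p = 0.0152), MkP (-1.69 ± 0.39, 0.0176) and preCFUE (-1.63 ± 0.39, 0.0148) were each lower than preGM. Each of these 3 calls was lost in a fit of only those arrays (adjusted p = 0.204, 0.14 and 0.176) and without 1 array of the lower fraction, namely CLP replicate 1 (0.0539), MkP replicate 3 (0.0708) or preCFUE replicate 1 (0.0696). The CLP call was also lost with array weights (-1.16, adjusted p = 0.051), and the CLP and MkP calls with the array 75th percentile as a covariate (0.106 and 0.107). Without preGM replicate 3 the CLP, MkP and preCFUE differences were -1.10, -1.10 and -1.04, and all 3 still passed (adjusted p = 0.0155, 0.0209 and 0.0226). No difference of 1456956_at from preMegE passed as reported. It was -0.78 ± 0.35 in CLP (adjusted p = 0.143), -0.77 ± 0.35 in MkP (0.221) and -0.72 ± 0.35 in preCFUE (0.378), with arrays not overlapping. The CLP and MkP differences from preMegE passed without preGM replicate 3 (0.0178 and 0.0364) and in fits of only those arrays (0.0408 and 0.0381). The third Ikzf2 probe set, 1421643_at, lay under 16 in 15 of 17 arrays and passed no test (F test adjusted p = 0.303), although without CLP replicate 2 its F test passed (0.0409).

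**Figure D3:**
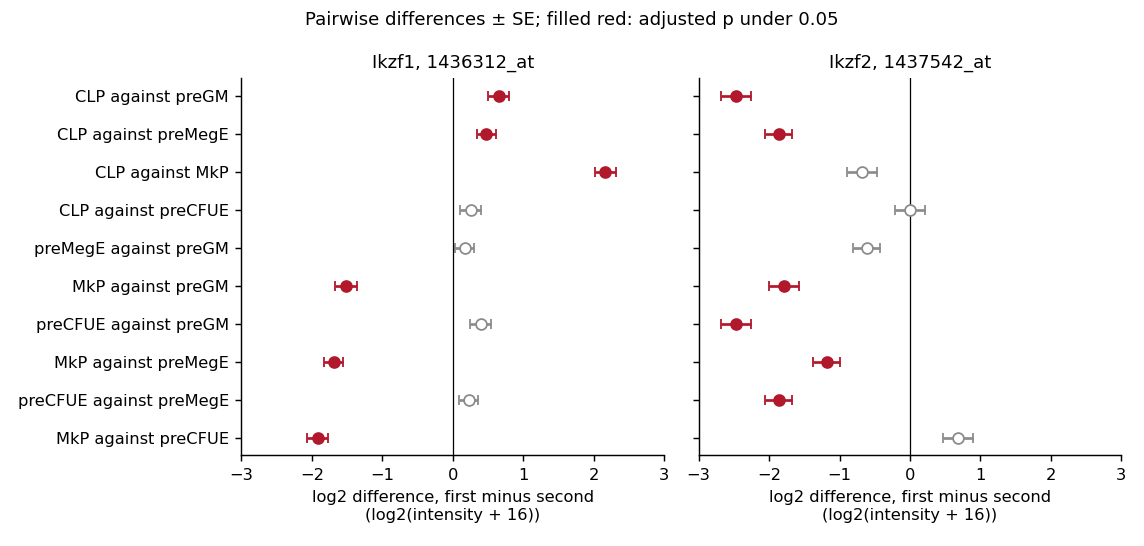
Differences of log2(intensity + 16), first fraction minus second, ± SE from the limma fit of all 17 arrays, for Ikzf1 1436312_at (left) and Ikzf2 1437542_at (right) in the 10 pairs of fractions. Filled red points have an adjusted p under 0.05; every pair with MkP is filled for Ikzf1, and for Ikzf2 the filled pairs all set CLP, MkP or preCFUE against preMegE or preGM.

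Ikzf3 encodes Aiolos, which in B lineage cells follows Ikaros. None of its signals was strong in these fractions. The probe set with the highest mean (1441088_at) read 46.0, 30.3 and 49.97 in CLP, 36.0, 34.2 and 46.0 in MkP, and 27.3, 34.2 and 28.2 in preCFUE. In preMegE it read 28.7, 39.2, 16.3, 27.1 and 27.8, and in preGM 20.3, 22.9 and 23.9. All arrays of CLP, MkP and preCFUE lay above all preGM arrays, and preMegE overlapped each of the others. CLP was higher than preGM by 0.58 ± 0.17 (adjusted p = 0.0392). MkP differed from preGM by 0.51 ± 0.17 (adjusted p = 0.0879) and from CLP by less than its error (CLP minus MkP 0.075 ± 0.17, adjusted p = 0.872).

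The Ikzf3 calls moved both ways across analyses. The F test of 1441088_at passed with array weights (adjusted p = 0.0106), with 1 probe set per gene (0.0487), and without CLP replicate 2 (0.0181) or preMegE replicate 2 (0.0247) or 3 (0.0322). Without CLP replicate 2, CLP was higher than preMegE (0.57, adjusted p = 0.0155) and than preCFUE (0.48, 0.0471), and the difference from preMegE also passed without preMegE replicate 2 (0.50, 0.0241). The MkP difference from preGM passed with array weights (0.52, adjusted p = 0.00699), without preMegE replicate 3 (0.0374) and in a fit of only those arrays (0.0462). The CLP difference from preGM was lost with the Gapdh 3-prime over 5-prime ratio of each array, which rises as RNA is shortened, as a covariate (0.46, adjusted p = 0.124), and with the array 75th percentile as a covariate (0.18, 0.451). It was also lost with median centring (0.47, adjusted p = 0.0522), in a fit of only those arrays (0.149), without CLP replicate 1 (0.113) or 3 (0.48, 0.153) and without preGM replicate 1 (0.13) or 2 (0.101). With the replicate number as a block it was lost too (adjusted p = 0.108). Leaving out preMegE replicate 1, 4 or 5, MkP replicate 1 or preCFUE replicate 3 gave adjusted p-values of 0.0502 to 0.0532. The intensity of this probe set moved with the median intensity of the array (r = 0.877 over 17 arrays, 0.818 after removing fraction means), which was 17.5 to 19.1 in CLP and 16.1 to 17.1 in preGM, and its part in the result was not tested further. The other Ikzf3 probe sets, 1453378_at and 1436649_at, read at most 17.1 and 11.2 in any array and passed no test as reported (F test adjusted p = 0.176 and 0.392). The F test of 1453378_at passed without CLP replicate 2 (0.0289), and that of 1436649_at with array weights (0.0347).

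Markers of cells in which Aiolos or Ikaros is abundant were examined beside these values. Of 6 mature B and plasma cell genes, the summed level was 320 to 1114 in CLP and 766 to 1214 in preGM, and the defining B cell gene Ms4a1 averaged 9.38 in CLP and 8.53 in preGM. Of 7 T and NK cell genes, it was 340 to 450 in CLP and 369 to 498 in preGM, with Cd3g at 8.82 in CLP and 7.44 in preGM. The summed level of 7 plasmacytoid dendritic cell genes was higher in every CLP array (1872 to 2240) than in every preGM array (813 to 1150). Of these 7 genes 5 were higher and 0 lower in CLP by limma (4.17% of all genes were higher), at a median difference of 0.67, and Siglech averaged 37.4 ± 11.9 in CLP and 19.3 ± 3.39 in preGM (0.58 ± 0.13, adjusted p = 0.0153). In CLP, 5 were higher and 1 lower than in preMegE (22.9% of all genes passed), and 5 higher and 2 lower than in preCFUE (27.1%). Against MkP, 4 were higher and 0 lower (11.3%). Ccr9 is also on the list of lymphoid genes read below, so the sum is not a measure of dendritic cells alone. The part of such cells in the Ikzf1 and Ikzf3 values was not tested.

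Ikzf4 encodes Eos. Its 3 probe sets (1438274_at, 1460664_at and 1457342_at) read between 6.19 and 15.9 in all 17 arrays, so that all 51 values lay under 16, a range that held 47.3% of all values on the arrays. The F test gave adjusted p-values of 0.982, 0.754 and 0.325, and no pair of fractions passed. With no background level per probe set in the deposited values, such readings are not evidence of absence, and no difference in Ikzf4 was detectable at these intensities.

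Ikzf5 encodes Pegasus, and its 2 probe sets gave different pictures. The first (1429431_at) read 58.1, 115 and 50.8 in CLP, 111, 179 and 77.1 in MkP, and 158, 105 and 132 in preCFUE. In preMegE it read 164, 110.3, 297, 175 and 199, and in preGM 183, 187 and 219. The fractions overlapped except that all CLP, MkP and preCFUE arrays lay below all preGM arrays. CLP was lower than preGM by -1.29 ± 0.33 (2.44-fold, adjusted p = 0.025) and lower than preMegE by -1.18 ± 0.29 (2.27-fold, adjusted p = 0.0136), and no other pair passed. The second (1436554_at) read 33.4 to 74.4 over all arrays, averaged 47.2 ± 10.5 in CLP and 48.3 ± 11.2 in preGM, and passed no test (F test adjusted p = 0.51).

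Ikzf5 1429431_at ran opposite to the array median (r = -0.813 over 17 arrays, -0.689 after removing fraction means), the reverse of Ikzf3 1441088_at. With the 75th percentile of each array as a covariate the CLP differences were -0.58 from preGM (adjusted p = 0.335) and -0.69 from preMegE (0.0604). The difference from preGM was also lost with the Gapdh ratio as a covariate (-1.06, adjusted p = 0.0804), without CLP replicate 1 (0.0799) or 3 (0.107), without preGM replicate 1 (0.0694) or 2 (0.0703), and in a fit of only those arrays (0.109). The difference from preMegE was lost without CLP replicate 1 (0.0624) or 3 (0.0839) and in a fit of only those arrays (0.0566). Without CLP replicate 2, the array with the highest Ikzf5 value of its fraction, the differences were -1.59 from preGM and -1.48 from preMegE, and the difference from preCFUE passed as well (-1.05, adjusted p = 0.0304). With the replicate number as a block the CLP differences from preGM and preMegE were both lost (adjusted p = 0.0821 and 0.0984). The F test of Ikzf5 was lost in 14 analyses, 10 of which left out a single array. Among the 5 fractions, CLP had the highest Gapdh 3-prime over 5-prime log2 ratio (4.07 ± 1.06) and preGM the lowest (3.27 ± 0.62).

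**Figure D4:**
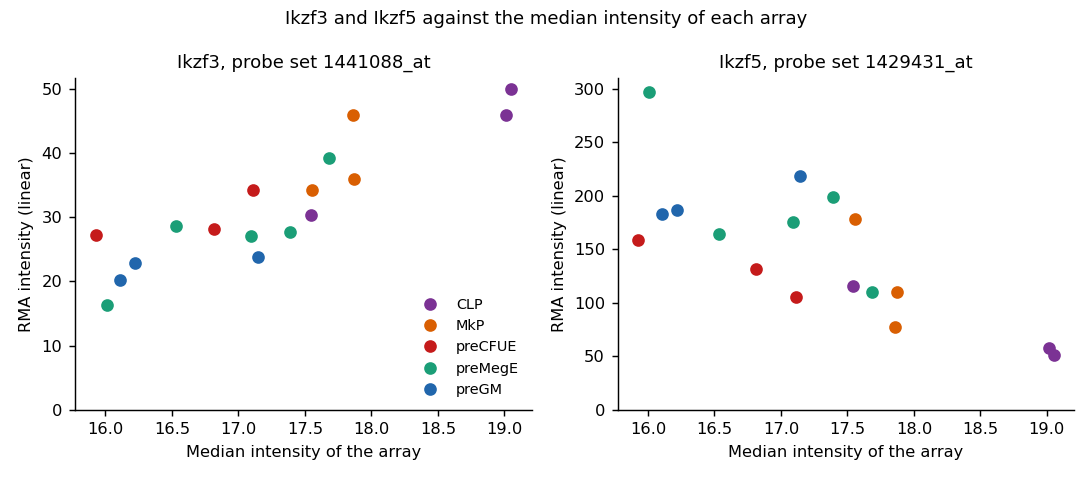
RMA intensity of Ikzf3 1441088_at (left) and Ikzf5 1429431_at (right) against the median intensity of the same array, 1 point per array, coloured by fraction. Ikzf3 is brighter and Ikzf5 dimmer on arrays with a high median (r = 0.877 and -0.813 over 17 arrays), and 2 CLP arrays lie at the far right.

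Counted by comparison, the family stood as follows. In CLP against preGM, 2 probe sets were higher and 3 lower of 13, where 10.8% of all probe sets passed, and the 5 became 7 without CLP replicate 2 (23.2% of all probe sets), 2 without CLP replicate 1 or preGM replicate 1 or 2, and 3 without CLP replicate 3. In CLP against preMegE 1 was higher and 2 were lower (16.7% of all probe sets passed; 5 passed without CLP replicate 2, beside 25% of all probe sets, and 1 without CLP replicate 1). In CLP against MkP 1 was higher (8.35%; 2 passed without preMegE replicate 3 or preCFUE replicate 3). In MkP against preGM 3 were lower (6.55%), and in preCFUE against preGM 2 were lower (8.48%; 1 without preCFUE replicate 1). Both that passed in MkP against preMegE (6.28%) were lower, as was the 1 in preCFUE against preMegE (5.34%) and the 1 in MkP against preCFUE (10.1%; 2 passed without preMegE replicate 3 or preCFUE replicate 2). In CLP against preCFUE (20.3%) and preMegE against preGM (5.21%), 0 passed by limma, with 2 probe sets in each at an unadjusted p under 0.05. Without CLP replicate 2, 4 passed in CLP against preCFUE (26.3% of all probe sets), and without preGM replicate 2 or preMegE replicate 3, 1 passed in preMegE against preGM. For arrays left out other than CLP replicate 2, the share over all probe sets was not computed. Those counts cannot be told apart from a change over the whole array. The median difference over the 13 probe sets lay between -0.052 and 0.082 in the 10 comparisons, and over all probe sets between 0.000056 and 0.028.

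The members did not move as 1 block across arrays. Ikzf1 1436312_at and Ikzf2 1437542_at had a Pearson r of -0.059 and a Spearman rho of -0.446 over the 17 arrays, given as a description of arrays that share fractions and processing. Ikzf2 1437542_at and Ikzf5 1429431_at had r = 0.695, and Ikzf3 1441088_at and Ikzf5 1429431_at had r = -0.923. Beside those 2 probe sets, the array median had r = 0.756 with Ikzf2 1421643_at, 0.748 with Ikzf3 1453378_at and 0.639 with Ikzf4 1460664_at.

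The genes whose pattern was most like that of a member were found by Pearson correlation of log2(intensity + 16) over the 17 arrays among 14420 probe sets with 1 symbol and a mean of at least 32. For Ikzf1 they were Mmd (r = 0.945), Klf3 (0.942) and Chst15 (0.912). Klf3, a Krüppel-like repressor, averaged 751 in CLP, 75.6 in MkP, 479 in preCFUE, 364 in preMegE and 256 in preGM, and so was lowest in MkP as Ikzf1 was. For Ikzf2 they were Cpa3 (0.926), Vim (0.923) and Eif4e3 (0.898). Cpa3, which encodes the mast cell carboxypeptidase, averaged 13.8 in CLP, 29.7 in MkP, 25.9 in preCFUE, 170.1 in preMegE and 153 in preGM. For Ikzf3 they were Ankib1, Esrrb and Zdhhc14 (0.942 to 0.938), and for Ikzf5 Ist1, Fam126b and Cenpc1 (0.941 to 0.932). The Ikzf3 and Ikzf5 probe sets used here themselves moved with the array median (r = 0.877 and -0.813). The part of that in their nearest genes was not tested. For Ikzf4 the highest r was 0.601 (Rad54l2), from values that all lay under 16.

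Partners of Ikaros in chromatin complexes were read from a list of 18 genes for NuRD subunits, Sin3, CtBP and the remodeller Smarca4. In CLP, 1 was higher and 1 lower than in preGM (14.8% of all genes passed), 3 higher and 4 lower than in preMegE (22.9%), 2 higher and 0 lower than in MkP (11.3%), and 2 higher and 3 lower than in preCFUE (27.1%). Against preGM, preMegE had 1 higher and 2 lower (7.85%), MkP 0 higher and 1 lower (9.66%) and preCFUE 1 higher and 1 lower (12.6%). In MkP, 1 was lower than in preMegE (9.05%) and 2 were lower than in preCFUE (14.2%), and in preCFUE 1 was higher than in preMegE (7.72%). Counts of 1 or 2 of 18 are near these shares and are not a result about the list. The median difference was -0.23 in CLP against preGM, beside 0.0046 over all genes. It was -0.25 in CLP against preMegE, 0.0017 against MkP and -0.38 against preCFUE. No partner averaged under 16 in any fraction, whereas 47.3% of all values on the arrays lay under 16. The median over all genes is therefore not one of genes of like intensity.

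Among these partners Chd3, a Mi-2 remodeller, was 287 ± 36.9 in CLP, 36.9 ± 11.6 in MkP, 62.6 ± 6.65 in preCFUE, 87.8 ± 16.7 in preMegE and 221 ± 97.8 in preGM. Chd3 was higher in CLP than in MkP by 2.54 ± 0.24 (limma adjusted p = 5.83e-06), lower in MkP than in preGM by -2.11 ± 0.24 (5.61e-05) and lower in MkP than in preMegE by -0.98 ± 0.21 (0.0127). Mta3, a NuRD subunit, was 1052 ± 218 in CLP and 361 ± 35.4 in preGM (1.49 ± 0.21, adjusted p = 0.0006). Ctbp2, a corepressor, was 44.7 ± 4.32 in CLP and 125 ± 12.4 in preGM (-1.21 ± 0.24, adjusted p = 0.00746). Mbd2, a methyl-CpG binding NuRD subunit, was 554 ± 29.2 in preCFUE and 362 ± 51.2 in preMegE (0.60 ± 0.14, adjusted p = 0.0222). Chd4, which encodes Mi-2beta, was 318 ± 89.5 in CLP and 298 ± 57.8 in preGM and did not pass (0.071 ± 0.21, adjusted p = 0.852). Its difference of CLP from preMegE was 0.26 ± 0.19 (adjusted p = 0.376).

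Cereblon is the substrate receptor through which thalidomide-type drugs direct human Ikaros and Aiolos to destruction. Of 5 genes for its ubiquitin ligase, 1 was higher (Rbx1, 0.66 ± 0.14, adjusted p = 0.0122) and 1 lower (Crbn, -1.86 ± 0.56, adjusted p = 0.0472) in CLP than in preGM, where 14.8% of all genes passed. Crbn varied widely within a fraction, at 94.2 ± 119 in CLP and 278 ± 128 in preGM. In CLP, 0 were higher and 2 lower than in preMegE (22.9% of genes passed), and 1 was higher and 3 were lower than in preCFUE (27.1%). In preCFUE, 2 were higher than in preGM (12.6%), and in preMegE 1 was higher than in preGM (7.85%). Cul4a, the scaffold of the ligase, was lower in CLP than in preMegE (-1.26 ± 0.18, adjusted p = 0.000191) and lower in MkP than in preMegE (-0.85 ± 0.18, adjusted p = 0.0096), the 1 gene that passed there (9.05%). In MkP against preCFUE 1 was lower (14.2%). By limma 0 of 5 passed in CLP against MkP (11.3%), MkP against preGM (9.66%) and preCFUE against preMegE (7.72%), with 3, 0 and 4 at an unadjusted p under 0.05.

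Genes of the lymphoid programme in which Ikaros acts were read beside Ikzf1. Of 15, 11 were higher and 0 lower in CLP than in preGM (median difference 2.08, beside 0.0046 over all genes, where 4.17% of genes were higher). Ebf1, a B lineage factor, was 941 ± 262 in CLP and 6.29 ± 0.956 in preGM (5.38 ± 0.14, adjusted p = 4.62e-11), and Rag1, a recombinase gene, was 1127 ± 756 in CLP and 8.78 ± 0.830 in preGM. The CLP gate uses the products of Il7r and Flt3, which are on the list, so their part in the count follows from the sort. In CLP, 15 of 15 were higher than in preMegE (22.9% of all genes passed in either direction) and than in preCFUE (27.1%). In the same way, 14 were higher in CLP than in MkP (11.3%). Against preGM, 8 were lower in preMegE (7.85%), 6 in MkP (9.66%) and 9 in preCFUE (12.6%), and none was higher. In MkP against preMegE 2 of 15 were lower (9.05% of all genes passed). They were Satb1, a chromatin organiser (-1.07 ± 0.22, adjusted p = 0.00895), and Vpreb1, a surrogate light chain gene (-0.84 ± 0.22, adjusted p = 0.0385). In preCFUE against preMegE 1 was lower (7.72%), again Satb1 (-1.23 ± 0.22, adjusted p = 0.0035), and in MkP against preCFUE 1 was higher (14.2%). Counts of 1 or 2 of 15 are near these shares and are not a result about the list.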

How the data were processed

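Expression was measured in 5 sorted bone marrow fractions on 17 arrays. The deposited values are linear intensities per probe set; per the series' design text the authors amplified the RNA in a second round of in vitro transcription, scaled arrays to a median intensity of 100 and summarised probes by RMA, which the submitters' processing notes also name. The deposited array medians are 15.9 to 19.1, so that scaling does not hold for the RMA values as deposited. The RMA version is not given in the sources used here, and arrays carry no depth, so their number limits the precision. Amplification favours transcript 3-prime ends, so probe sets far from the end can read low. Groups follow the array titles; a free-text description naming another gate for every array was not used.

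From the 45101 deposited probe sets 64 controls were left out. log2(intensity + 16) was fitted with limma 3.58.1 in R 4.3.3 over all 17 arrays, with 10 pairwise contrasts and a moderated F test. P-values were Benjamini-Hochberg adjusted over 45037 probe sets at 0.05. Symbols came from the platform annotation (34945 probe sets with 1 symbol, 932 with several, 9160 unlisted). Lists used the probe set of highest mean per gene. Named genes were all members, the 3 nearest genes of each, and from each list up to 3 past the test and up to 2 not past it, besides markers that check the gates. The code was checked on simulated data. The members and lists were chosen with earlier results of these data known. Deviations from fraction means showed no pairing of arrays by replicate number. Same-numbered arrays correlated at -0.536 to 0.502 over 30 pairs (median -0.045). Arrays of other numbers correlated at -0.555 to 0.535 over 84 pairs (median 0.012). With so few arrays per fraction this cannot exclude shared animals or sorting days.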

Additional observations from a re-analysis of the deposited data

Results flagged for a closer look

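One value stood far from the other arrays of its fraction by Dixon's criterion at the 95% level, which was applied to the preMegE arrays of each of the 13 probe sets and which chance meets in about 1 of 20 groups. Ikzf2 1437542_at read 532 in preMegE replicate 3, against 288 to 345 in the other preMegE arrays, a gap of 0.767 of the range of the fraction. The same array had the highest 75th percentile of intensity of all 17 arrays, at 73.9. The part of that in the value was not tested.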

How the results depend on the processing

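Of the 18 differences that passed, 10 passed under every alternative and with each array left out, 8 were lost under at least 1, and 0 turned sign. Of 32 that did not pass for the same probe sets, 12 passed under at least 1 alternative and 10 turned sign, none of the turned values passing (lowest adjusted p = 0.541). The array 75th percentile as a covariate was chosen after seeing the data. The causes of the changes below were not tested, except that the filter on SD over mean left only 2 of the 13 probe sets to be tested.

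The share of all probe sets that passed was not computed under these settings, apart from the fits without CLP replicate 2 given above. A changed count can therefore not be told apart from a change over the whole array. The F test count of 4 became 2 with the filter on SD over mean and 2 with the 75th percentile covariate, and 3 to 7 with single arrays left out. CLP against preGM, 5 as reported, gave 3 with median centring, 2 with the SD over mean filter, 3 with the Gapdh covariate, 2 with the 75th percentile covariate and 1 in a fit of only those arrays, and 2 to 7 with arrays left out. CLP against preMegE, 3 as reported, gave 1 with the SD over mean filter and 1 to 5 with arrays left out. CLP against MkP, 1 as reported, gave 2 among probe sets with a mean of at least 16 and 1 to 2 with arrays left out. CLP against preCFUE, 0 as reported, gave 1 with quantile normalization and 0 to 4 with arrays left out. preMegE against preGM, 0 as reported, gave 2 with the SD over mean filter, 2 with array weights and 0 to 1 with arrays left out. With array weights MkP against preGM gave 6 in place of 3 and preCFUE against preGM 4 in place of 2; the count for preCFUE against preGM was 1 with 1 probe set per gene and 1 to 2 with arrays left out. MkP against preMegE gave 1 in place of 2 with the SD over mean filter. MkP against preCFUE, 1 as reported, gave 2 with a pseudocount of 1, 2 with quantile normalization, 2 with a mean of at least 16, 2 with array weights, 2 with 1 probe set per gene and 1 to 2 with arrays left out.

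Deviations of the arrays showed no pairing by replicate number, which cannot exclude shared animals or sorting days. With the replicate number as a replicate block 13 of the 18 differences passed and 5 were lost. The 5 were the CLP differences of Ikzf1, Ikzf3 and Ikzf5 from preGM, and those of Ikzf1 and Ikzf5 from preMegE. The counts were then 2 in CLP against preGM and 1 in CLP against preMegE.

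Signs turned for values that had not passed. Ikzf2 1437542_at in CLP against preCFUE was -0.0048 with a pseudocount of 64, -0.13 with median centring and -0.0022 with the Gapdh covariate, and -0.21 to 0.16 with arrays left out. Ikzf2 1456956_at with arrays left out ran from -0.11 to 0.12 in CLP against MkP, from -0.23 to 0.066 in CLP against preCFUE and from -0.22 to 0.069 in MkP against preCFUE. With the 75th percentile covariate Ikzf3 1441088_at in MkP against preCFUE was -0.022 (0.25 as reported), and Ikzf5 1429431_at was 0.10 in preMegE against preGM (-0.11 as reported), 0.039 in MkP against preGM (-0.68 as reported) and 0.33 in MkP against preCFUE (-0.15 as reported). Ikzf5 in MkP against preCFUE was 0.15 with quantile normalization and -0.43 to 0.10 with arrays left out, and in preMegE against preGM -0.28 to 0.052. Ikzf3 1441088_at with arrays left out was -0.025 to 0.23 in CLP against MkP and -0.020 to 0.17 in preCFUE against preMegE. Ikzf4 and the dim probe sets of Ikzf2 and Ikzf3 lay in the range where signal over background limits any difference.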
